A study of Mus musculus with 6 samples.

Results

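The mouse mitochondrial genome encodes 37 genes, and all of them had a row among the 55416 genes of the deposited expression table. They were taken as the rows whose gene name starts with mt-, and comprised 13 mRNAs (protein-coding genes), 2 rRNAs and 22 tRNAs. RNA was sequenced from satellite cells (SCs), the resident stem cells of skeletal muscle, in 3 libraries from WT mice and 3 from *Ltf*-KO mice. The *Ltf*-KO mice lack several exons of the lactoferrin gene in every tissue, after CRISPR-Cas9 editing of C57/BL6N zygotes, and the methods describe the mice as young adults. The methods describe the SCs sorted from hind leg muscle as Sca1-, CD11b-, CD34+ and α7-integrin+ cells, although the stains listed there include no CD11b or CD34 antibody. Both genotypes grew for 4 days on Matrigel in growth medium with serum, chick embryo extract and basic FGF, with no other treatment. The sources do not say that the libraries came from separate animals or cultures, so p-values measure only the spread between these libraries.

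*Ltf* itself had TPM values of 0.12, 0.02 and 0.02 in WT libraries and 0.02, 0.03 and 0 in *Ltf*-KO libraries, so its level did not separate the genotypes in these cultures. All 8 myogenic markers of the list (*Pax7*, *Myf5*, *Myod1*, *Myog*, *Des*, *Cdh15*, *Itga7* and *Vcam1*) had a mean of 1 TPM or more, and summed to 2172–2346 TPM in WT and 2184–2471 TPM in *Ltf*-KO libraries. Marker sums of other cell types were far lower. They were 8.21–14.8 TPM in WT and 12.3–20.2 TPM in *Ltf*-KO for 5 fibroblast genes, 12.3–23.1 and 14.4–20.6 TPM for 4 Schwann cell genes, 4.98–10.1 and 4.56–10.2 TPM for 5 endothelial genes, and 18.2–20.6 and 19.6–22.8 TPM for 5 erythroid genes. Macrophage genes summed to 10.8–11.8 TPM in WT and 9.48–11.9 TPM in *Ltf*-KO, nearly all of it *Cd14* and *Cd68*. The macrophage genes *Ptprc*, *Adgre1* and *Csf1r* were at 0.39 TPM or less in every library. Neutrophil genes summed to 1.11–3.26 TPM in WT and 0.86–3.40 TPM in *Ltf*-KO. Smooth muscle and pericyte genes summed to 32.5–35.6 and 31.8–42.1 TPM, nearly all of it *Cspg4*, and genes of mitochondria-rich brown fat and heart to 0.45–0.77 and 0.34–1.23 TPM, with *Ucp1* listed at 0 in all 6 libraries. Every one of these sums overlapped between the genotypes.

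Mitochondrial DNA is transcribed from both strands into long polycistronic RNAs, which are cut at the tRNAs that lie between most of the mRNAs and rRNAs. The rRNAs build the mitochondrial ribosome, the tRNAs feed it, and every mRNA encodes a subunit of the oxidative phosphorylation machinery. These subunits belong to complex I (NADH dehydrogenase), complex III (cytochrome bc1), complex IV (cytochrome c oxidase) and complex V (ATP synthase), while complex II is encoded entirely in the nucleus. Growing SCs rely on glycolysis as well as on respiration, and oxidative metabolism gains weight as they differentiate. Stretches of mitochondrial DNA have also been inserted into nuclear chromosomes during evolution, and a recent insertion can be nearly identical to its source.

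Positions below are from the GENCODE M21 annotation of GRCm38, matched by gene identifier, whereas the submitters' processing notes name GRCm39. On chrM, 12 mRNAs and 14 tRNAs lie on the plus strand, and 1 mRNA (mt-Nd6) and 8 tRNAs lie on the minus strand. Neighbouring genes share bases in places. The end of mt-Atp8 (bases 7766–7969) and the start of mt-Atp6 (bases 7927–8607) share 43 bases on the same strand, mt-Nd4l and mt-Nd4 share 7, and mt-Nd5 and mt-Nd6 share 14 on opposite strands. The stretch shared by the ATP synthase genes is shown in capitals, in the last 80 bases of mt-Atp8 and the first 80 of mt-Atp6, since these genes had very unlike deposited levels (GENCODE M21 transcripts):
mt-Atp8: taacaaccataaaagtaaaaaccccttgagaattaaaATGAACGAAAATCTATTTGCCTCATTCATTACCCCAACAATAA
mt-Atp6: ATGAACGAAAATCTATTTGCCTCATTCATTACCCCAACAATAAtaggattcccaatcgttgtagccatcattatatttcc

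Far longer stretches are shared with the nucleus. Alignment of the mitochondrial transcripts to all nuclear transcripts of GENCODE M21 found 33 nuclear genes with a match, 11 of them at 95% identity or more. Of these 11 genes, 6 had a mean of 1 TPM or more, and all 6 lie in a block of 4663 bases on the minus strand of chromosome 1 (GRCm38, 24611535 to 24616197). The block holds 7 unprocessed pseudogenes in the order of their mitochondrial sources. Gm28661 matched 681 of the 684 bases of mt-Co2, Gm10925 678 of the 681 bases of mt-Atp6, Gm28437 783 of the 784 bases of mt-Co3 and Gm10222 294 of the 297 bases of mt-Nd4l, each without a mismatch. Gm28438 matched 345 of the 348 bases of mt-Nd3 with 1 mismatch. These 5 copies cover 99.0 to 99.9% of their sources, and full-length refers below to these chromosome 1 copies only. The other copies of the block are partial, as Gm29216 matches the last 483 of the 1545 bases of mt-Co1 at 99.8% identity, and Gm28439 the first 876 of the 1378 bases of mt-Nd4 at 100%. Outside the block, Gm13340 on chromosome 2 matched all 1545 bases of mt-Co1 at 97.6% identity, with a mean of 0.0417 TPM. Gm13341, also on chromosome 2, matched mt-Co2 along its length at 95.9%, with a mean of 0.433 TPM. Copies below 95% identity spanned all of mt-Nd6 (Gm11408) and nearly all of mt-Cytb (Gm11410), and both were listed at 0.

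A pair of examples shows how little distinguishes a mitochondrial mRNA from its annotated nuclear copy. The last 60 bases of mt-Co2 are set beside the last 57 of Gm28661, with capitals for the 3 bases beyond the annotated end of the copy. Only annotated transcripts were compared, so whether chromosome 1 carries these 3 bases too was not examined. The first 40 bases of mt-Nd3 and Gm28438 follow, with capitals at the substitution T3C (the base of mt-Nd3, its position counted from 1 at the 5′ end of mt-Nd3, then the base of the copy), which is the only mismatch of that pair:
mt-Co2: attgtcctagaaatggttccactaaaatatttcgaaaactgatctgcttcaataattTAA
Gm28661: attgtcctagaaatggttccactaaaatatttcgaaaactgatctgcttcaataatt
mt-Nd3: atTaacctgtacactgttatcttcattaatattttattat
Gm28438: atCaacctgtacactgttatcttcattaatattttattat

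Mitochondrially encoded genes made up 6.13 to 6.69% of the summed TPM of a library, where the 6 columns summed to between 993650 and 994356 TPM. The 13 mRNAs summed to 64475, 63375 and 60732 TPM in WT and to 65772, 61705 and 60183 TPM in *Ltf*-KO. The ranges of the genotypes overlapped, with means of 62861 ± 1923 TPM in WT and 62554 ± 2890 TPM in *Ltf*-KO (SD, n = 3 each), a ratio of 0.995. The 2 rRNAs summed to 640.0, 695.5 and 673.6 TPM in WT and to 706.5, 650.6 and 709.5 TPM in *Ltf*-KO. Here too the ranges overlapped, and the means were 670 ± 28.0 and 689 ± 33.2 TPM, a ratio of 1.03. In bulk RNA of this kind, the share of mitochondria-rich cells and the mitochondrial RNA per cell cannot be told apart.

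The 22 tRNAs were listed at 0 in all 6 libraries. They are 59 to 75 bases long, and the shortest and the longest, mt-Ts2 and mt-Tl1 (serine and leucine tRNAs), are printed to show their size (GENCODE M21 transcripts, whole):
mt-Ts2: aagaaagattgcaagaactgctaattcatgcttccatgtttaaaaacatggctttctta
mt-Tl1: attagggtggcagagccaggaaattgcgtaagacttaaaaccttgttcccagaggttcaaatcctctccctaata
A zero was the rule for genes of this length. Of 780 other genes of the table whose longest annotated transcript has at most 75 bases, 779 (99.9%) were listed at 0 in all 6 libraries. The share was 98.0% of 2643 genes with 76 to 150 bases and 90.7% of 2605 genes with 151 to 300 bases. The tRNA rows thus give no level for either genotype, and no test was made on them.

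The 12S and 16S rRNAs, mt-Rnr1 (chrM bases 70–1024) and mt-Rnr2 (bases 1094–2675), stood well below most of the mRNAs in TPM, which is a level per length. mt-Rnr1 was at 267, 294 and 297 TPM in WT and at 304, 285 and 304 TPM in *Ltf*-KO. mt-Rnr2 was at 373, 401 and 376 TPM in WT and at 402, 366 and 406 TPM in *Ltf*-KO. For both rRNAs the libraries of the genotypes overlapped, and within a library the level of mt-Rnr2 was 1.27 to 1.40 times that of mt-Rnr1. By contrast mt-Nd1, the mRNA that follows mt-Rnr2 after a tRNA on the same strand, was 12.3 to 14.0 times the level of mt-Rnr2. The labels name total RNA, and whether rRNA was removed or poly(A) RNA selected before sequencing is not given in the sources used here.

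**Figure D1:**
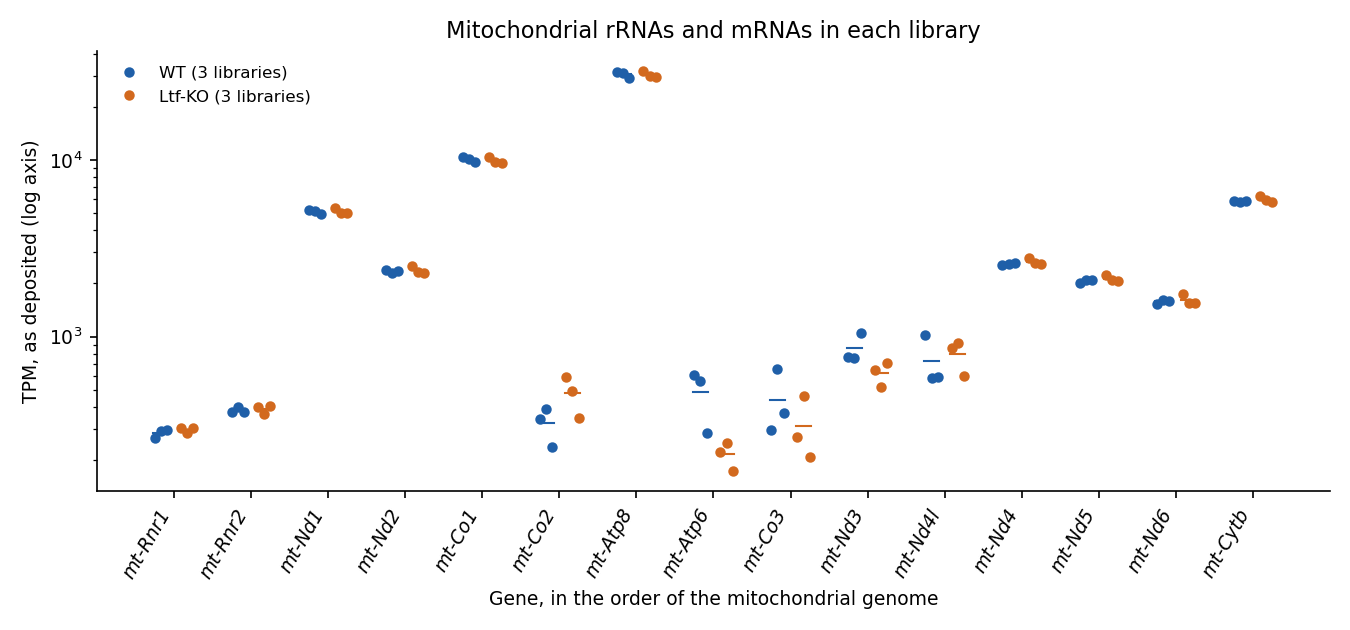
TPM as deposited (log axis) of the 2 rRNAs and 13 mRNAs in each library, in the order of the mitochondrial genome, with WT in blue, *Ltf*-KO in orange and a bar at the mean of 3 libraries. mt-Atp8 lies between 29050.1 and 31945 TPM in all 6 libraries, while mt-Co2, mt-Atp6, mt-Co3, mt-Nd3 and mt-Nd4l lie between 173 and 1053 TPM with wide spread.

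Complex V contributed the highest and the lowest mRNA of the deposited table. mt-Atp8, a small subunit of the ATP synthase membrane part, was at 31478, 30873 and 29050.1 TPM in WT and at 31945, 29786 and 29269.6 TPM in *Ltf*-KO. It had the highest mean TPM of all 55416 genes, a level per length for a gene of 204 bases. It held 48.5% of the mitochondrial mRNA sum as deposited, or 29.4% once the nuclear copies described below were added to their genes. mt-Atp6, the subunit that forms the proton channel with the rotor ring, was at 608, 562 and 284 TPM in WT and at 223, 249.99 and 173 TPM in *Ltf*-KO. Although the 2 reading frames share 43 bases and one messenger, the deposited level of mt-Atp8 was 51.8 to 169 times that of mt-Atp6. All 3 *Ltf*-KO libraries lay below all 3 WT libraries for mt-Atp6, with WT replicate 3 nearest to them.

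Complex IV showed the same contrast between its members. mt-Co1, the catalytic core of cytochrome c oxidase (bases 5328–6872), was at 10341, 10088 and 9686 TPM in WT and at 10375, 9793 and 9629 TPM in *Ltf*-KO, the third highest mean of the table. mt-Co2, which receives electrons from cytochrome c (bases 7013–7696), was at only 344, 388 and 237 TPM in WT and at 593, 493 and 345 TPM in *Ltf*-KO. mt-Co3, a structural core subunit (bases 8607–9390), was at 295, 657 and 372 TPM in WT and at 271, 459.8 and 208 TPM in *Ltf*-KO. The genotypes overlapped for each of the 3, narrowly for mt-Co2, where *Ltf*-KO replicate 3 fell within the WT range. Complex III has a single mitochondrially encoded subunit, cytochrome b, and mt-Cytb (bases 14145–15288) was at 5887, 5771 and 5888 TPM in WT and at 6221, 5943 and 5803 TPM in *Ltf*-KO, again overlapping.

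Complex I has 7 mitochondrially encoded subunits, all in its membrane arm, and as deposited they summed to 15258 ± 246 TPM in WT and 15293 ± 746 TPM in *Ltf*-KO (SD, n = 3 each). As deposited, mt-Nd1 (bases 2751–3707) was the highest, with 5235, 5121 and 4923 TPM in WT and 5353, 4977 and 4989 TPM in *Ltf*-KO. The proton-pumping subunits followed, with mt-Nd2 at 2288 to 2506 TPM, mt-Nd4 at 2554 to 2793 TPM and mt-Nd5 at 2009 to 2240.1 TPM over the 6 libraries. mt-Nd6, the mRNA of the minus strand (bases 13552–14070), was at 1539.8, 1613 and 1593 TPM in WT and at 1736, 1548 and 1541 TPM in *Ltf*-KO. The ratio of mt-Nd5 to mt-Nd6, which overlap on opposite strands, was 1.29 to 1.35 in every library, but whether the counting used strand is not given, so reads of one and reads antisense to the other cannot be told apart. None of these 5 genes separated the genotypes.

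The remaining complex I subunits, mt-Nd3 (bases 9459–9806) and mt-Nd4l (bases 9877–10173), are the shortest and were the lowest in the deposited values. mt-Nd3 was at 766, 757 and 1053 TPM in WT and at 649, 518 and 711 TPM in *Ltf*-KO, so that every *Ltf*-KO library lay below every WT library. mt-Nd4l was at 1024, 585 and 590.3 TPM in WT and at 868, 922 and 602 TPM in *Ltf*-KO, with full overlap. In the deposited values the 8 mRNAs without a full-length copy on chromosome 1 occupied the top 8 places, from mt-Atp8 to mt-Nd6, and their library ranges did not overlap one another. The 5 mRNAs with a full-length copy took the last 5 places among the mRNAs, where each overlapped its neighbour in the order.

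The chromosome 1 copies were listed at levels found otherwise in the most abundant mRNAs of the cell. Gm28661, the copy of mt-Co2, was at 14063, 13924 and 13964 TPM in WT and at 14383, 13583 and 13811 TPM in *Ltf*-KO, which was 24.2 to 58.9 times mt-Co2 itself. Gm28437, the copy of mt-Co3, was at 8183 to 8932 TPM over the 6 libraries, Gm10222 (mt-Nd4l) at 7071 to 8134 TPM, Gm10925 (mt-Atp6) at 6788 to 7531 TPM and Gm28438 (mt-Nd3) at 2591 to 3505 TPM. The partial copy Gm29216 (mt-Co1) was at 1094 to 1439 TPM, and the partial copy Gm28439 (mt-Nd4) was listed at 0 in all 6 libraries. Of the 20 genes with the highest mean TPM in the table, 4 were mitochondrial mRNAs and 4 were copies in this block. The 7 copies together held 4.15 ± 0.0161% of the summed TPM in WT and 4.25 ± 0.152% in *Ltf*-KO (SD, n = 3 each), which raised the sum of mitochondrial genes and copies to 10.3–11.1%. Reads that fit both places equally well could be listed under either, and how they were assigned is not given in the sources used here.

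Over the 5 full-length pairs, the share of a pair that was listed under the mitochondrial gene varied from 1.67% to 28.9% between pairs and libraries. For mt-Atp6 it was 7.95, 7.65 and 3.98% in WT and 2.88, 3.44 and 2.41% in *Ltf*-KO. For mt-Nd3 it was 19.6, 18.7 and 28.9% in WT and 15.6, 14.0 and 18.5% in *Ltf*-KO. These were the pairs whose genotypes did not overlap in this share, while the shares of mt-Co2 (1.67 to 3.96%), mt-Co3 (2.30 to 7.29%) and mt-Nd4l (6.83 to 12.6%) overlapped. The pair of mt-Co1 and its partial copy was listed mostly under the mitochondrial gene, at 87.0 to 90.2%, and the pair of mt-Nd4 and its partial copy was listed wholly under it.

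**Figure D2:**
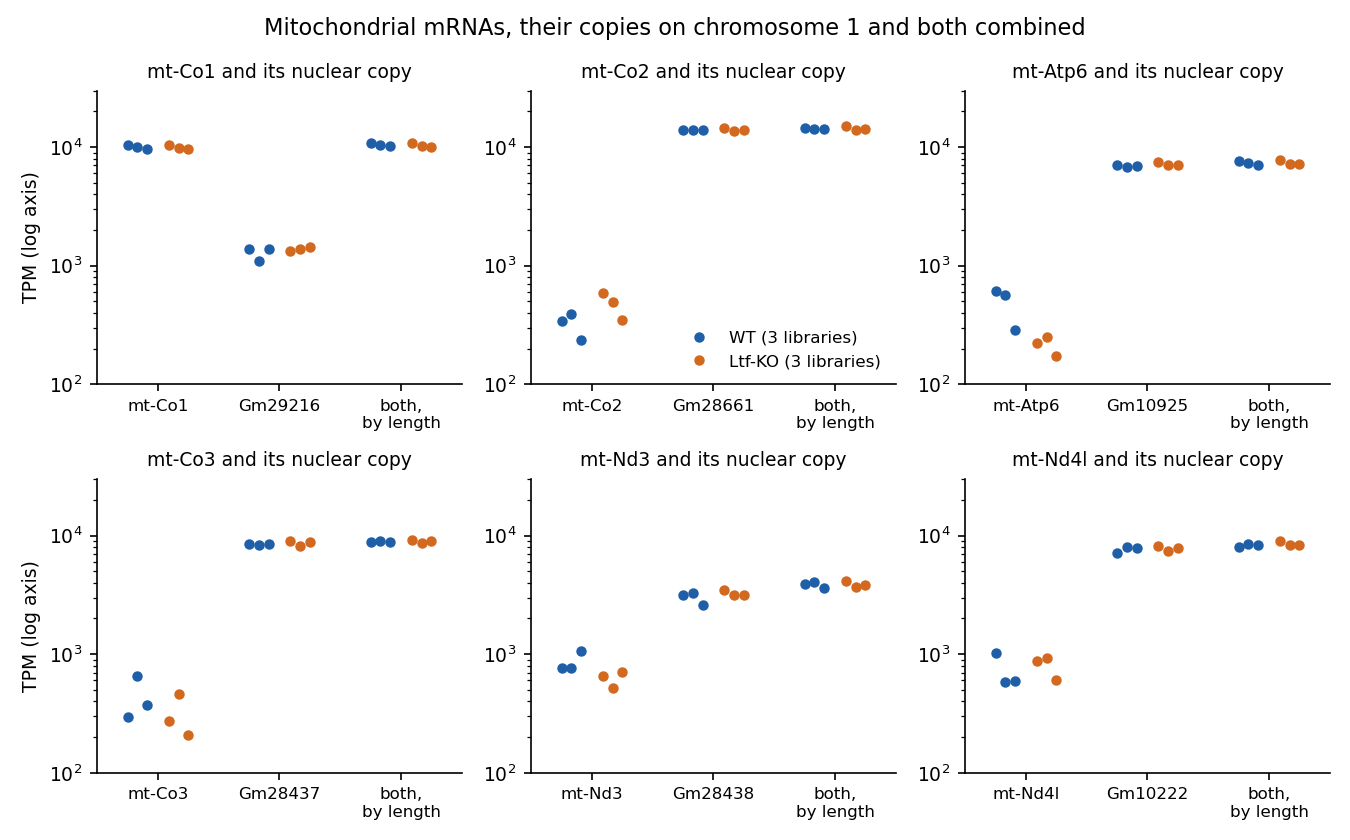
TPM (log axis) of 6 mitochondrial mRNAs, of the chromosome 1 copy of each, and of both combined by length, in the 3 WT (blue) and 3 *Ltf*-KO (orange) libraries. The copies of the 5 full-length pairs lie above the mitochondrial gene in every library, and the combined values of mt-Co2 lie between 14017 and 14913 TPM.

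To express each pair on the scale of the mitochondrial gene, the TPM of the copy was multiplied by the ratio of the copy's length to the gene's length and added to the TPM of the gene. Combined in this way, mt-Atp6 was at 7608, 7320.2 and 7115 TPM in WT and at 7721, 7237 and 7177 TPM in *Ltf*-KO. mt-Nd3 was at 3883, 4031 and 3622 TPM in WT and at 4124, 3670.2 and 3815 TPM in *Ltf*-KO. In the combined values the genotypes overlapped for all 5 full-length pairs, mt-Atp6 and mt-Nd3 among them. At most 28.9% of a full-length pair was listed under the mitochondrial gene, so the combined value mostly follows the copy. A difference confined to the gene's own row would be small beside it, so the overlap cannot show that this row did not differ.

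The order of the mRNAs also changed with this step. From the highest mean TPM to the lowest, the combined order was mt-Atp8 (30400.5), mt-Co2 (14294), mt-Co1 (10411), mt-Co3 (8906), mt-Nd4l (8420.2), mt-Atp6 (7363), mt-Cytb (5919), mt-Nd1 (5099.9), mt-Nd3 (3857), mt-Nd4 (2615), mt-Nd2 (2361), mt-Nd5 (2097) and mt-Nd6 (1595). Within complex I, mt-Nd4l thus moved from near the bottom to the highest place, above mt-Nd1. The complex I sum was 25815 ± 338 TPM in WT and 26276 ± 1209.6 TPM in *Ltf*-KO when combined (SD, n = 3 each), with overlapping libraries. The library ranges of neighbours overlapped only for mt-Co3 and mt-Nd4l. The lowest mRNA mean was 350.2 TPM as deposited and 1595 TPM combined, and the median mRNA stood at 2097 and 5919 TPM. Across the 13 mRNAs, Spearman's rho of mean TPM with gene length was 0.302 as deposited and -0.319 combined, a description over genes that share libraries and are not independent.

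Ratios between genes that are translated from a shared messenger varied less between libraries after the step. The combined values of mt-Atp6 and mt-Nd4l hold mostly the copy, which varied less between libraries than the gene's own row. The steadier ratios therefore follow from the step itself and say little about the messenger. The level of mt-Atp8 over that of mt-Atp6 ranged from 51.8 to 169 in the deposited values and from 4.08 to 4.22 combined. For mt-Nd4l over mt-Nd4, whose reading frames share 7 bases, the deposited ratio was 0.227 to 0.401 and the combined ratio 3.14 to 3.30. The combined ratios were therefore not at 1, although each pair of reading frames lies on the same messenger. In each pair the gene with the higher combined level is the shorter one, with 204 against 681 bases and 297 against 1378 bases. TPM divides by length, and how length was counted is not given in the sources used here. Whether these ratios reflect RNA levels was not tested. The block on chromosome 1 has no annotated copy of mt-Atp8 apart from the 43 bases inside Gm10925.

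The spread between libraries followed the same division. The coefficient of variation over the 6 libraries was 53.1% for mt-Atp6, 43.0% for mt-Co3, 31.4% for mt-Co2, 25.6% for mt-Nd4l and 23.9% for mt-Nd3, with a median of 31.4%. The 8 other mRNAs had a median of 3.44% (2.71 to 4.72%), and mt-Rnr2 and mt-Rnr1 had 4.57 and 4.80%. The 5 full-length copies had a median of 3.69% (1.91 to 9.68%). The 5 combined pairs, which hold mostly the copy, had 3.34% (2.27 to 5.10%). Among 1376 other genes whose mean reached 100 TPM, the median was 3.73% and the 95th percentile 12.3%, and 21 genes (1.53%) were at or above the 23.9% of mt-Nd3. The depth behind these values is unknown, since TPM does not keep it.

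**Figure D3:**
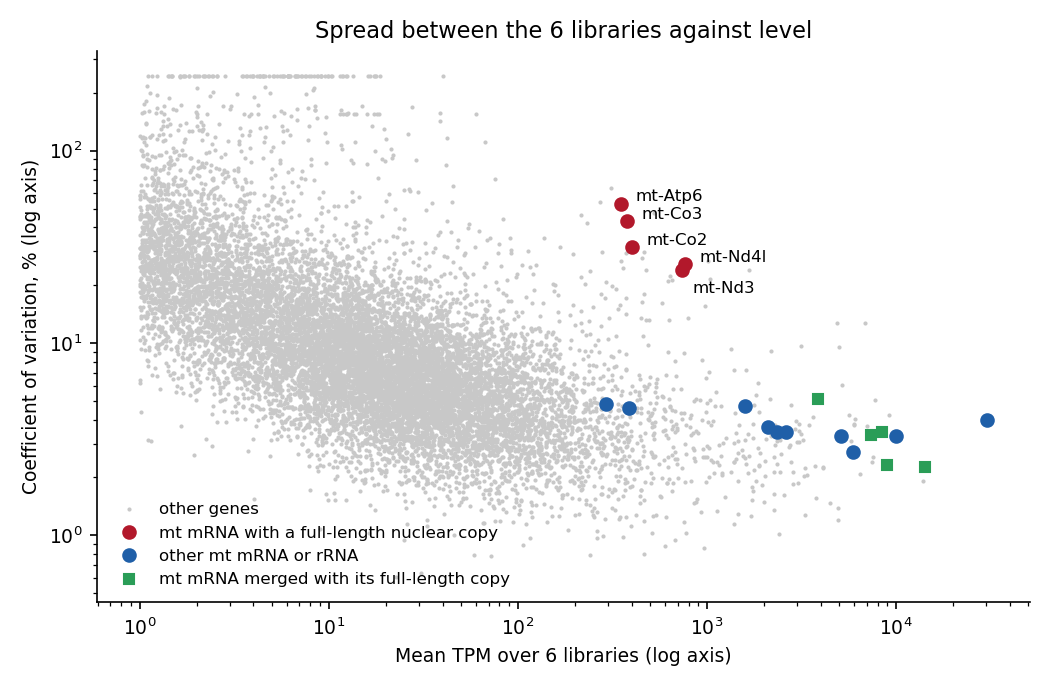
Coefficient of variation over the 6 libraries against mean TPM (both axes log) for genes whose mean reached 1 TPM, with mitochondrial genes in red or blue and the combined pairs as green squares. The 5 genes with a full-length copy on chromosome 1 lie at 23.9 to 53.1%, above most genes of their level, while the combined pairs lie at 2.27 to 5.10%.

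*Ltf*-KO was compared with WT to ask whether the loss of lactoferrin changes the transcriptome of cultured SCs. The comparison used limma on log2(TPM + 1) over the 12956 genes whose mean reached 1 TPM, with Benjamini-Hochberg adjustment over all of them. The 2 rRNAs and 13 mRNAs were tested, and 0 had an adjusted p under 0.05, as did 0.0% of all tested genes. At an unadjusted p under 0.05 there were 2 of 15, mt-Atp6 and mt-Nd3, both lower in *Ltf*-KO, against a background of 3.78% of all tested genes in either direction, 1.78% in the lower and 2.01% in the higher one. These were also the 2 genes of 15 whose genotypes did not overlap, against 8.46% of all tested genes. Both belong to the 5 genes with a full-length copy, and neither passed the unadjusted threshold when gene and copy were combined.

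For mt-Atp6 (ENSMUSG00000064357) the mean was 485 ± 175 TPM in WT and 216 ± 38.9 TPM in *Ltf*-KO (SD, n = 3 each). The log2 fold change was -1.10 (95% CI -1.82 to -0.39), with an unadjusted limma p of 0.00877 and an adjusted p of 0.999. Its copy Gm10925 (ENSMUSG00000100862) did not separate in this way, at 6893 ± 125 TPM in WT and 7195 ± 292 TPM in *Ltf*-KO, a log2 fold change of 0.06 (95% CI -0.02 to 0.14). Combined, the log2 fold change was 0.0058 (95% CI -0.09 to 0.10).

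For mt-Nd3 (ENSMUSG00000064360) the mean was 859 ± 168 TPM in WT and 626 ± 98.6 TPM in *Ltf*-KO (SD, n = 3 each), a log2 fold change of -0.45 (95% CI -0.84 to -0.06). The unadjusted limma p was 0.0303 and the adjusted p 0.999. The unadjusted threshold was missed without WT replicate 3 (log2 fold change -0.29), without *Ltf*-KO replicate 1 (-0.48) and without *Ltf*-KO replicate 2 (-0.32). The copy Gm28438 had a log2 fold change of 0.12 (95% CI -0.10 to 0.35), and the combined value was 0.0088 (95% CI -0.13 to 0.14). Whether the separation of the deposited values arose in the cells or in the division of reads between gene and copy was not tested.

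The other 3 genes with a full-length copy had wide intervals. mt-Co2 was higher on average in *Ltf*-KO, with a log2 fold change of 0.56 (95% CI -0.03 to 1.15, unadjusted limma p of 0.0612, adjusted p of 0.999), mt-Co3 was lower with -0.49 (95% CI -1.39 to 0.41), and mt-Nd4l stood at 0.15 (95% CI -0.47 to 0.77). None of them passed the unadjusted threshold in this fit of all 6 libraries. Among the fits with a library left out, mt-Co2 passed when WT replicate 2 (0.70) or *Ltf*-KO replicate 3 (0.77) was left out, and the other 2 genes passed in none. Combined with their copies, they came to 0.0092 for mt-Co2, 0.016 for mt-Co3 and 0.04 for mt-Nd4l.

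The 10 genes without a full-length copy had log2 fold changes between -0.016 (mt-Co1) and 0.057 (mt-Rnr1). Their 95% confidence intervals all lay between -0.11 and 0.18. mt-Nd1 of complex I had 0.0034 (95% CI -0.09 to 0.10), mt-Cytb of complex III 0.03 (95% CI -0.04 to 0.11), mt-Co1 of complex IV -0.02 (95% CI -0.11 to 0.08) and mt-Atp8 of complex V -0.0065 (95% CI -0.11 to 0.10). mt-Nd6, from the minus strand, had 0.02 (95% CI -0.10 to 0.15). The median over the 15 tested members was 0.02, beside 0.01 over all tested genes.

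**Figure D4:**
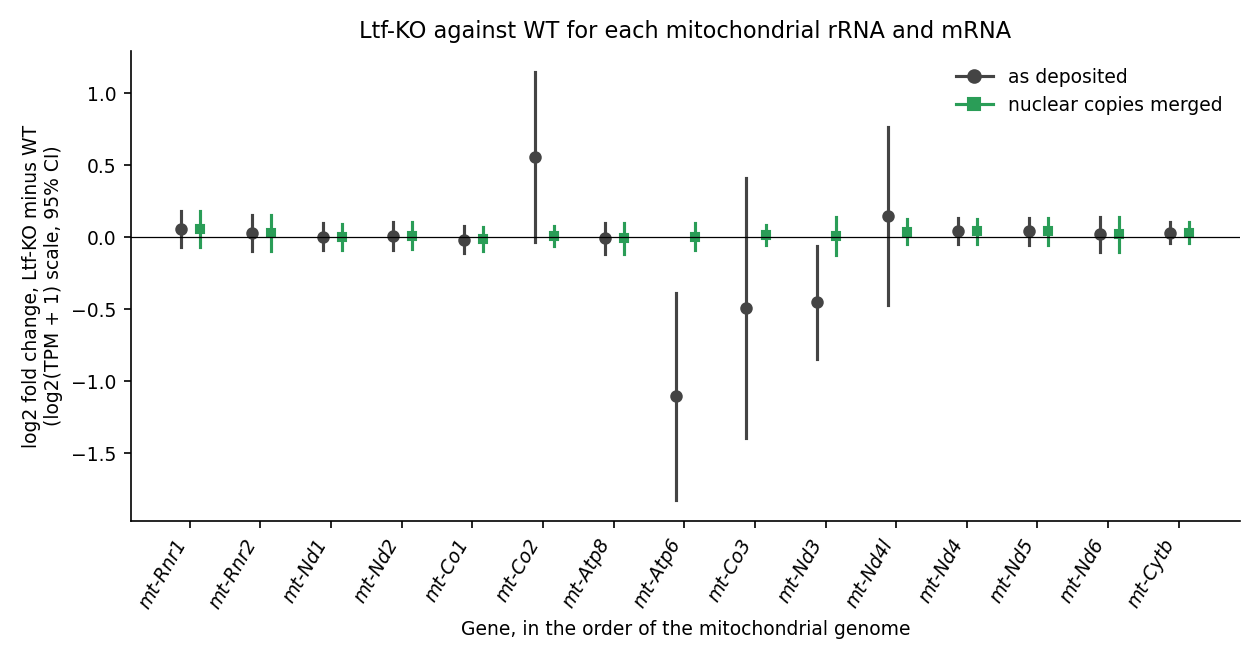
log2 fold change (*Ltf*-KO minus WT, on the log2(TPM + 1) scale) with its 95% confidence interval from limma for each of 15 mitochondrial genes, as deposited (grey circles) and with nuclear copies combined (green squares). As deposited, the intervals of mt-Atp6 and mt-Nd3 lie below 0, and combined, all 15 intervals lie between -0.13 and 0.18 and include 0.

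With copies combined, 0 of the 15 mitochondrial genes had an unadjusted limma p under 0.05, against 3.79% of the 12950 genes then tested, and 0 an adjusted one. The log2 fold changes ran from -0.011 to 0.057, and 13 were above 0. This alternative was chosen after seeing the data. In the full-length pairs it weighs the copy far more than the gene, so it says little about the gene's own row.

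Expression of the mitochondrial genome depends on nuclear genes, and a list of 74 of them was examined, covering transcription, replication, RNA processing, translation and the nuclear regulators of these steps. Of the 73 in the table, all passed the filter on low values. At an unadjusted limma p under 0.05 there were 3 of 73 (2 higher and 1 lower in *Ltf*-KO, against 3.78% of all tested genes in either direction), and 0 had an adjusted p under 0.05. The median log2 fold change was -0.01, with 30 genes above 0 and 43 below, beside a median of 0.01 over all tested genes. The count was 1 without WT replicate 2, and 5 without WT replicate 3 or *Ltf*-KO replicate 3.

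For the transcription and replication genes named for their role, every interval of the difference included 0. *Polrmt*, the mitochondrial RNA polymerase, was at 29.2 ± 2.38 TPM in WT and 31.0 ± 3.26 TPM in *Ltf*-KO (SD, n = 3 each), a log2 fold change of 0.09 (95% CI -0.13 to 0.31). *Tfam*, which packages mitochondrial DNA and opens its promoters, was at 42.4 ± 6.47 and 37.4 ± 3.22 TPM, with -0.17 (95% CI -0.45 to 0.11). *Tfb2m*, the initiation factor, had 0.0077 and *Tefm*, the elongation factor, -0.12, both with intervals that included 0. The replication genes *Polg* (DNA polymerase) and *Twnk* (helicase) had 0.01 and 0.08, and *Ppargc1a*, a coactivator of mitochondrial biogenesis, was low at 2.29 and 2.36 TPM with 0.03. None of these 7 genes passed the unadjusted threshold.

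Among the genes that process and hold mitochondrial RNA, *Slirp* was the only one named for its role that passed the unadjusted threshold. *Slirp* encodes the RNA-binding partner of *Lrpprc*, and the pair is known to stabilise mitochondrial mRNAs. It was at 31.5, 32.3 and 31.1 TPM in WT and at 24.5, 28.3 and 28.9 TPM in *Ltf*-KO, so every *Ltf*-KO library lay below every WT library. The genotypes did not overlap for 8.46% of all tested genes. The log2 fold change was -0.21 (95% CI -0.38 to -0.04), with an unadjusted limma p of 0.0214 and an adjusted p of 0.999. Without WT replicate 2 it missed the unadjusted threshold (-0.20), and without *Ltf*-KO replicate 1 it was -0.14. *Lrpprc* itself was at 45.3 ± 1.84 and 44.8 ± 1.59 TPM, with -0.01 (95% CI -0.13 to 0.11).

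Genes of the enzymes that release tRNAs from the long transcripts were measured as well. *Elac2*, which cuts the 3′ side, was at 48.0 and 47.3 TPM on average in WT and *Ltf*-KO, *Prorp*, the catalytic subunit that cuts the 5′ side, at 11.0 and 10.9 TPM, and its partner *Trmt10c* at 19.5 and 17.7 TPM. The log2 fold change of *Trmt10c* was -0.13 (95% CI -0.27 to 0.0081), with an unadjusted limma p of 0.061 and an adjusted p of 0.999. Its 3 *Ltf*-KO libraries (16.5 to 18.3 TPM) lay below its 3 WT libraries (19.1 to 19.9 TPM), and it passed the unadjusted threshold with median-of-ratios scaling (-0.14). *Mtpap*, the poly(A) polymerase, had -0.05 and *Pnpt1*, the RNA-degrading phosphorylase, -0.02, with intervals that included 0. The other 2 list members at an unadjusted p under 0.05 modify tRNAs, and are named because they make up that count. *Trmt61b*, a tRNA methyltransferase, had a log2 fold change of 0.28 (95% CI 0.09 to 0.46), with an unadjusted limma p of 0.0111 and an adjusted p of 0.999. *Trmu*, which thiolates the wobble base of some tRNAs, had 0.33 (95% CI 0.08 to 0.57), with an unadjusted limma p of 0.0171 and an adjusted p of 0.999. Both were higher in every *Ltf*-KO library than in any WT library, but *Trmu* missed the threshold without WT replicate 1 or WT replicate 2. Such separation was found in 8.46% of all tested genes, and other genes of the list separated too.

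Mitochondrial tRNAs are charged by aminoacyl-tRNA synthetases encoded in the nucleus. The list of these also held subunits of a tRNA amidotransferase and a formyltransferase, which act on charged tRNAs. Of its 25 symbols, which include an older and a newer symbol for a pair of its genes, 23 were in the table and passed the filter. At an unadjusted limma p under 0.05 there were 0 of 23, against 3.78% of all tested genes, and 0 at an adjusted one. The log2 fold changes ran from -0.14 to 0.16 with a median of 0.0016. RNA of these nuclear genes was thus measured in SCs of both genotypes where the tRNAs themselves were listed at 0.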

How the data were processed

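RNA-seq of cultured SCs was analysed from 6 libraries, grouped by genotype from the sample labels. The authors deposited TPM values for 55416 genes. GRCm39 comes from the submitters' processing notes, and the aligner, counting tool and treatment of reads with several matches are not given in the sources used here. TPM is scaled to a fixed total and keeps no depth, so precision was judged from the spread between libraries. The table has 0 columns of other samples.

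Members and lists were chosen with earlier results of these data known. *Ltf*-KO was compared with WT by limma 3.58.1 in R 4.3.3 (lmFit, eBayes with a trend), two-sided, on log2(TPM + 1), for genes whose mean reached 1 TPM, with Benjamini-Hochberg adjustment over all of them and a threshold of 0.05. The script was tested on simulated data. Class sums and coefficients of variation were computed in Python 3.11.15 with pandas 2.3.3. GENCODE M21 mitochondrial transcripts were aligned to nuclear transcripts with blastn 2.17.0 (word size 20, e-value 1e-10), and copies on chromosome 1 at 95% identity or more were combined with their sources by length.

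The genes named are all mitochondrial genes, *Ltf*, 14 nuclear genes named for their role, and nuclear copies whose mean reached 1 TPM. The last of these includes *Cep295* on chromosome 9, whose matches of 57 to 491 bases were 77.4 to 93.5% identical, at 19.4 TPM in WT and 18.4 TPM in *Ltf*-KO. It was not combined with a mitochondrial gene. Alternatives were a pseudocount of 0.1, no filter, a mean of 10 TPM or more, rescaling without mitochondrial genes, median-of-ratios scaling, the replicate number as a block and each library left out. Combining nuclear copies was added after seeing the data. No count model was run, as the table holds TPM.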

Additional observations from a re-analysis of the deposited data

How the results depend on the processing

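Under every alternative 0 of the 15 mitochondrial genes tested had an adjusted p under 0.05 (limma). At an unadjusted p under 0.05 there were 2, and 0 with nuclear copies combined. With a library left out there were 1 to 3, only mt-Atp6 without WT replicate 3, *Ltf*-KO replicate 1 or *Ltf*-KO replicate 2, and mt-Co2 (higher in *Ltf*-KO) beside mt-Atp6 and mt-Nd3 without WT replicate 2 or *Ltf*-KO replicate 3. The smallest adjusted p was 0.165, for mt-Atp6 without WT replicate 3, where its log2 fold change was -1.45. Left-out libraries gave 1 to 5 genes of the mitochondrial gene expression list (3 with all libraries; 1 without WT replicate 2, 5 without WT replicate 3 or *Ltf*-KO replicate 3) and 0 to 1 synthetase (1, *Wars2*, without *Ltf*-KO replicate 2). The mitochondrial gene expression list gave 4 genes with a pseudocount of 0.1 and 4 with median-of-ratios scaling. The log2 differences of the class sums moved by less than the spread between libraries, to between -0.044 and 0.02 for the mRNAs (-0.0076 with all libraries) and between 0.0081 and 0.081 for the rRNAs (0.04 with all libraries) with a library left out. The causes were not tested.

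With the replicate number as a block, 4 members had an unadjusted p under 0.05 (mt-Co2, mt-Atp6, mt-Co3 and mt-Nd3; 3 lower and 1 higher in *Ltf*-KO). Over all tested genes, deviations of libraries with the same number correlated at -0.0413, -0.0582 and -0.0875, so no pairing was seen across the transcriptome. For the genes with a full-length copy the block lowered the standard error. It went from 0.246 to 0.0902 for mt-Co2, 0.299 to 0.145 for mt-Atp6, 0.376 to 0.139 for mt-Co3, 0.163 to 0.0763 for mt-Nd3 and 0.258 to 0.178 for mt-Nd4l. It did not fall for every other member. The sources do not state a pairing, and whether these rows share one was not tested.

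Of 245 log2 fold changes of 36 genes under alternatives that kept all libraries, 5 changed sign, and 0 passed an adjusted p of 0.05. They were mt-Atp6 (0.0058), mt-Co3 (0.016) and mt-Nd3 (0.0088) with copies combined, and mt-Nd1 (-0.0071) and *Tfb2m* (-0.0024) with median-of-ratios scaling. With a library left out, 16 genes changed sign, all at small values. Their ranges were mt-Nd1 -0.031 to 0.023, mt-Nd2 -0.028 to 0.038, mt-Co1 -0.047 to 0.0064, mt-Atp8 -0.044 to 0.019, mt-Nd6 -0.034 to 0.052, Gm29216 -0.0048 to 0.17, Gm28661 -0.030 to 0.011, Gm10222 -0.022 to 0.065, *Tfb2m* -0.012 to 0.041, *Polg* -0.073 to 0.093, *Lrpprc* -0.046 to 0.012, *Elac2* -0.081 to 0.029, *Prorp* -0.052 to 0.079, *Pnpt1* -0.088 to 0.057, *Ppargc1a* -0.057 to 0.098 and *Cep295* -0.14 to 0.015. The 5 genes with a full-length copy kept their sign and ranged from -1.45 to -0.90 for mt-Atp6, -0.55 to -0.29 for mt-Nd3, 0.35 to 0.77 for mt-Co2, -0.81 to -0.16 for mt-Co3 and 0.012 to 0.42 for mt-Nd4l.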
